A study of Mus musculus with 6 samples.

Results

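The genes described here encode the Wnt ligands, their receptors and the proteins that release, amplify or block them outside the cell. They were chosen by name, not by any measured value, though with earlier results of these data known. A row of the deposited table was taken where its Ensembl identifier mapped to Wnt, Fzd, Sfrp, Dkk, Rspo or Axin followed by a digit, or to Frzb, Wif1, Lrp5, Lrp6, Lgr4, Lgr5, Lgr6, Znrf3, Rnf43, Lef1, Porcn, Wls or Notum. This gave 40 of the 16344 genes of the table. The GENCODE M21 annotation holds 56 protein-coding genes with such names, and the other 16, among them Wnt1, Wnt2, Wnt3, Wnt7a, Dkk1 and Rspo2, were not analysed here.

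Wnt proteins are secreted lipid-modified signals that bind Frizzled receptors together with LRP5 or LRP6. Binding stops the Axin-containing complex from destroying beta-catenin, which then enters the nucleus and acts with TCF and LEF factors on genes such as Axin2. Several of those genes encode inhibitors of the pathway, so the pathway limits itself. Wnt4 guides development of the Müllerian duct and the ovary, and Wnt5a signals largely without beta-catenin.

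The tissue was tumour from mice bearing the 60577 transplantable model of high-grade serous ovarian cancer, in which cells of 1 mouse line grow in the abdominal cavity of syngeneic hosts. All animals carried established tumours of 21 days and had received 3 weekly cycles of carboplatin, a platinum drug. The AZD7507 group (n = 3) then received AZD7507, an inhibitor of the macrophage growth factor receptor CSF1R, by daily gavage for 84 days, and the comparison group (n = 3) received vehicle. Tumours were taken at the humane endpoint, so time of collection and treatment cannot be told apart, and no age or strain of the hosts entered the analysis. Nothing in the labels ties a library to a separate animal, so p-values measure only the spread between these 3 and 3 tumours. Of the marker genes, Wt1, Msln and Krt18 lay between a log2 RPKM of 5.47 and 7.47 in the 6 libraries. Pax8, a transcription factor gene of Müllerian epithelium, lay between -3.89 and -2.09. The epithelial markers Epcam and Cldn3 lay between 2.26 and 4.46 and between -0.83 and 2.49. Wt1 and Msln are also on the mesothelial list used below, so they cannot tell tumour cells from mesothelium.

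Values are log2 RPKM, that is, read density per gene length and library size on a log2 scale, so that 1 unit is a doubling and 0 is 1 RPKM. The number of reads behind each value is unknown, so no counting interval is given, and values below 0 may rest on few reads. Csf1r itself was at 2.57, 2.78 and 1.71 in the AZD7507 tumours, against 4.85, 5.47 and 4.59 in the vehicle tumours, a difference of -2.62 (SE 0.32, limma adjusted p 0.035). Without any 1 library it did not pass (adjusted p 0.067 to 0.15), while the difference stayed between -2.83 and -2.30. Of 10 macrophage markers 6 passed downward (against 0.337% of all genes), or 0 to 2 on leaving out 1 library. The summed RPKM of the 10 ran from 81.9 to 198 in the AZD7507 tumours and from 416 to 672 in the vehicle tumours. The tissue was bulk, so fewer cells of a type and less RNA per cell cannot be told apart. AZD7507 2 and Vehicle 2 also held pancreatic acinar transcripts, with a summed RPKM of 4329 and 3918 for 7 of 8 markers, against at most 8.43 in each other library.

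No Wnt pathway gene passed the test between AZD7507 and vehicle. With limma across all 16344 genes (Benjamini-Hochberg adjusted p under 0.05, 2-sided), 0 of the 40 rose and 0 fell, where 0.0184% of all genes rose and 0.337% fell. The lowest adjusted p among the 40 was 0.55, for Wnt5a. At an unadjusted p under 0.05, 1 of the 40 was higher (Wnt5a) and 0 were lower, or 2.5% and 0%, against 3.31% and 5.49% of all genes. The 3 AZD7507 tumours lay above the 3 vehicle tumours for 1 of the 40 (Fzd5) and below them for 0, against 7.34% and 8.02% of all genes.

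The differences were small beside the spread among tumours. Their median was 0.11 on the log2 scale, against 0.025 over all genes, and 25 of 40 were positive (62.5%, against 54.5% of all genes). Leaving out 1 library moved that median between 0.056 (without AZD7507 3) and 0.14 (without AZD7507 2), and without Vehicle 2 it was 0.064, against 0.013 over all genes. For 35 of the 40 the difference was smaller than the larger of the within-group SDs, as it was for 72.7% of all genes. The median half-width of the 95% interval was 0.62 for these genes and 0.42 over all genes. The interval lay within 1 log2 unit on either side of 0 for 23 of the 40 (57.5%, against 79% of all genes), so for those a doubling or halving lies outside the interval. Of the other 17 intervals, 10 held a doubling but not a halving, 4 held a halving but not a doubling, and 3 held both.

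**Figure D1:**
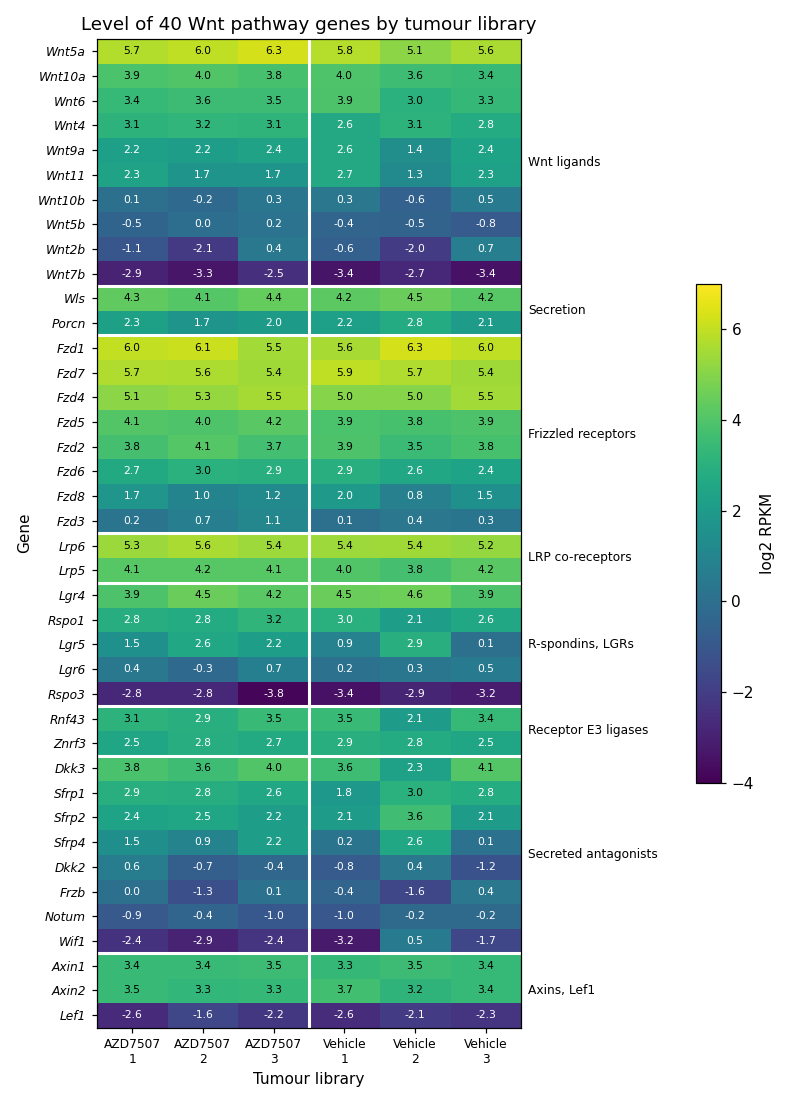
Level of each of the 40 Wnt pathway genes (rows, grouped by role and ordered by mean level) in each library (columns), as log2 RPKM. The strongest rows are Fzd1, Wnt5a, Fzd7, Lrp6 and Fzd4, and single genes stand apart in single libraries, such as Dkk3 at 2.30 and Sfrp2 at 3.63 in Vehicle 2 and Sfrp1 at 1.85 in Vehicle 1.

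**Figure D2:**
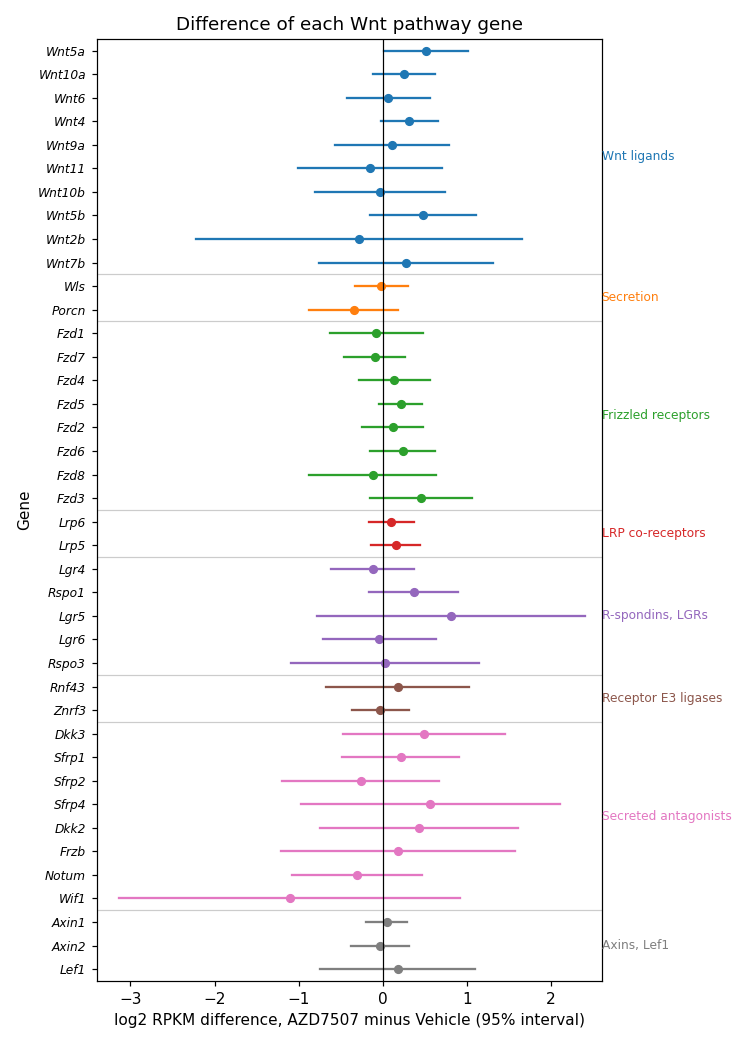
Difference in log2 RPKM (AZD7507 minus vehicle) for each gene, with points for the limma estimate and bars for its 95% interval, not adjusted for the number of genes. All intervals but that of Wnt5a (0.017 to 1.01) include 0, and the widest are those of Wif1, Wnt2b, Lgr5 and Sfrp4.

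Among the ligands, Wnt5a (chromosome 14, 28504750 to 28527448, plus strand, GRCm38 in the GENCODE M21 annotation, as for the positions below) was the most abundant in every library. It was at 5.74, 5.96 and 6.29 in the AZD7507 tumours, against 5.77, 5.11 and 5.58 in the vehicle tumours. The groups overlapped, since Vehicle 1 at 5.77 was just above AZD7507 1, and Vehicle 2 was the lowest of the 6. The difference was 0.51 (SE 0.21, 95% interval 0.017 to 1.01, limma adjusted p 0.55), or 1.43-fold, and it ran from 0.32 without Vehicle 2 to 0.65 without Vehicle 1. On the linear RPKM scale Wnt5a made up 57.7% ± 4.5 of the summed RPKM of the 10 measured ligands with AZD7507 and 51.3% ± 2.5 with vehicle (SD, n = 3 each). That sum was 111 ± 12.8 RPKM with AZD7507 and 88.7 ± 18.1 RPKM with vehicle, with the lowest value, 70.4 RPKM, in Vehicle 2.

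Wnt10a, Wnt6 and Wnt4 followed. Wnt10a, known for its part in tooth, hair and skin development, was at 3.87, 4.03 and 3.81 in the AZD7507 tumours, against 3.96, 3.60 and 3.40 in the vehicle tumours. Its difference was 0.25 and the groups overlapped. Wnt6 was at 3.39, 3.55 and 3.54 in the AZD7507 tumours, against 3.91, 3.04 and 3.33 in the vehicle tumours. The vehicle tumours spanned the whole AZD7507 range of Wnt6, with a difference of 0.067. Wnt4 was at 3.10, 3.23 and 3.14 in the AZD7507 tumours, against 2.63, 3.12 and 2.77 in the vehicle tumours. Its 3 AZD7507 tumours lay close together (SD 0.069), and of the vehicle tumours only Vehicle 2 reached them. The difference of Wnt4 was 0.32 (SE 0.14, 95% interval -0.022 to 0.65, limma adjusted p 0.60), and it ran from 0.21 without Vehicle 1 to 0.45 without Vehicle 2 (limma adjusted p 0.18 there).

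Of the lower ligands, Wnt5b, the close relative of Wnt5a, was at -0.46, -0.018 and 0.19 in the AZD7507 tumours, against -0.40, -0.48 and -0.83 in the vehicle tumours. The groups overlapped and the difference was 0.48 (SE 0.27, 95% interval -0.15 to 1.11, limma adjusted p 0.69). Wnt9a and Wnt11, at mean levels of 2.20 and 1.99 over the 6 libraries, differed by 0.10 and -0.15. Wnt10b, at a mean level of 0.079, differed by -0.038, and Wnt7b, the lowest ligand at -3.04, by 0.28. Wnt2b varied widely inside both groups, with a range of 2.52 log2 units among AZD7507 tumours and 2.73 among vehicle tumours, and differed by -0.28.

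Both measured genes of the secretion machinery were expressed in every library. Wls, the carrier that takes Wnt proteins to the cell surface, was at 4.31, 4.12 and 4.41 in the AZD7507 tumours, against 4.25, 4.50 and 4.15 in the vehicle tumours. The groups overlapped and the difference was -0.018 (95% interval -0.33 to 0.30). Porcn, the acyltransferase that adds the lipid to Wnt proteins, was at 2.26, 1.70 and 2.02 in the AZD7507 tumours, against 2.20, 2.76 and 2.06 in the vehicle tumours. Vehicle 2 was the highest for Porcn, and the difference of -0.35 (SE 0.22, 95% interval -0.87 to 0.18, limma adjusted p 0.74) was -0.13 without that library and -0.49 without Vehicle 3.

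**Figure D3:**
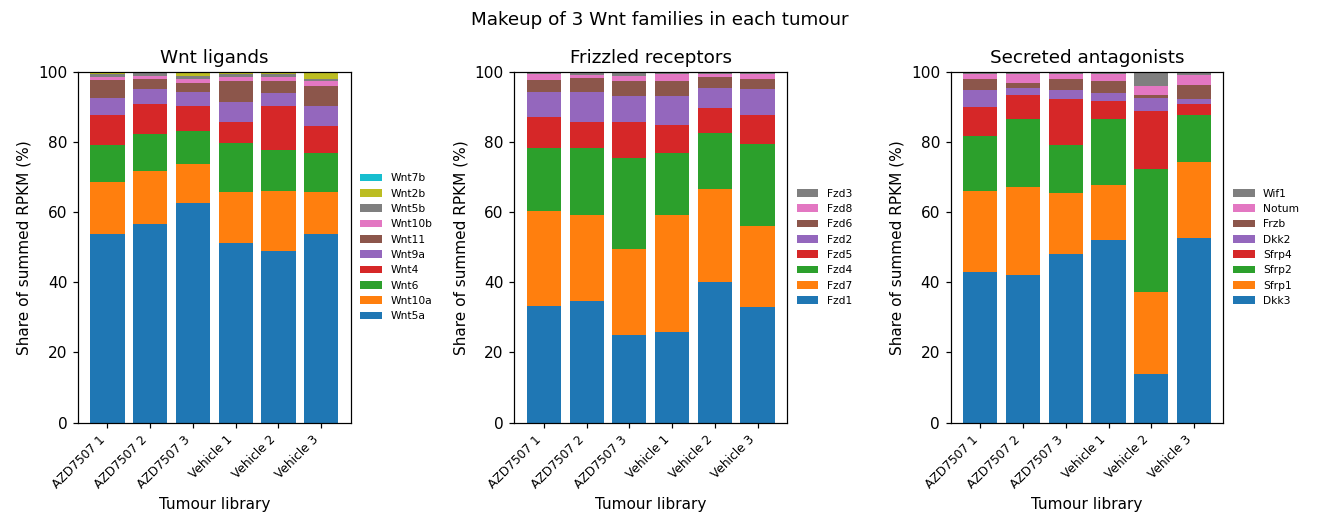
Share of the summed RPKM (percent, linear scale) that each gene contributed to the measured Wnt ligands, Frizzled receptors and secreted antagonists in each library. Wnt5a is the largest ligand share in all 6 libraries, and Vehicle 2 stands apart among the antagonists, where Dkk3 made up 14.0% against 42.0% to 52.7% in the other libraries.

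Among the receptors, Fzd1, Fzd7 and Fzd4 led, and with Wnt5a and Lrp6 they were the most abundant genes of the set. Fzd1 was at 5.97, 6.14 and 5.48 in the AZD7507 tumours, against 5.56, 6.30 and 5.97 in the vehicle tumours. The groups overlapped throughout, with a difference of -0.079. Fzd7, a receptor much studied in epithelial cancers, was at 5.69, 5.65 and 5.44 in the AZD7507 tumours, against 5.93, 5.70 and 5.44 in the vehicle tumours. Vehicle 1 was the highest for Fzd7 and Vehicle 3 the lowest, and the difference was -0.10 (95% interval -0.46 to 0.26). Fzd4, which also serves as the receptor for norrin in blood vessels, was at 5.08, 5.26 and 5.53 in the AZD7507 tumours, against 5.02, 4.98 and 5.48 in the vehicle tumours. The groups overlapped and the difference was 0.13.

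Fzd5 (chromosome 1, 64730558 to 64737751, minus strand) was the gene of the 40 whose groups did not overlap. It was at 4.07, 3.96 and 4.20 in the AZD7507 tumours, against 3.86, 3.78 and 3.95 in the vehicle tumours. The gap between the lowest AZD7507 and the highest vehicle tumour was small, and the difference of 0.21 (SE 0.11, 95% interval -0.041 to 0.46, limma adjusted p 0.65) did not pass. Fzd3, known from axon guidance and planar polarity, was at 0.25, 0.71 and 1.10 in the AZD7507 tumours, against 0.061, 0.36 and 0.29 in the vehicle tumours. AZD7507 3 was the highest for Fzd3, the groups overlapped, and the difference was 0.45 (SE 0.26, 95% interval -0.15 to 1.06, limma adjusted p 0.70). Fzd2, Fzd6 and Fzd8, at mean levels of 3.80, 2.75 and 1.37, differed by 0.12, 0.24 and -0.12. The summed RPKM of the 8 Frizzled genes was 190 ± 12.6 with AZD7507 and 189 ± 6.8 with vehicle, while Fzd1 took between 25.1% and 40.1% of it.

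The co-receptors varied little among tumours. Lrp6 was at 5.35, 5.59 and 5.40 in the AZD7507 tumours, against 5.37, 5.41 and 5.24 in the vehicle tumours. Its difference was 0.10 (95% interval -0.17 to 0.37). Lrp5 was at 4.14, 4.16 and 4.13 in the AZD7507 tumours, against 4.02, 3.77 and 4.18 in the vehicle tumours. The AZD7507 tumours lay within 0.025 log2 units of each other, inside the vehicle range, and the difference was 0.15.

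R-spondins are secreted proteins that bind LGR4, LGR5 or LGR6 and take the ubiquitin ligases ZNRF3 and RNF43 away from Frizzled, so that more receptor stays at the surface. Lgr4 was the most abundant of the 3 receptors, at 3.91, 4.47 and 4.20 in the AZD7507 tumours, against 4.47, 4.55 and 3.92 in the vehicle tumours. The groups overlapped and the difference was -0.12. Rspo1, an ovarian and mesothelial R-spondin, was at 2.84, 2.76 and 3.19 in the AZD7507 tumours, against 2.97, 2.14 and 2.59 in the vehicle tumours. Vehicle 2 was the lowest, and the difference of 0.36 was 0.15 without it and 0.57 without Vehicle 1. Rspo3 was near the bottom of the table at a mean log2 RPKM of -3.14, and Lgr6 was at 0.31, with differences of 0.027 and -0.04.

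Lgr5 (chromosome 10, 115450311 to 115587780, minus strand), an intestinal stem cell marker and a marker of progenitors of the ovarian surface epithelium in mice, had the largest positive difference of the 40 genes and a wide spread. It was at 1.52, 2.59 and 2.15 in the AZD7507 tumours, against 0.86, 2.91 and 0.053 in the vehicle tumours. Vehicle 2 was the highest of the 6 libraries and Vehicle 1 and Vehicle 3 the lowest, so the vehicle group enclosed the AZD7507 group. The difference was 0.81 (SE 0.68, 95% interval -0.78 to 2.41, limma adjusted p 0.81). Without Vehicle 2 the AZD7507 tumours were all above the remaining vehicle tumours and the difference was 1.63 (limma adjusted p 0.18), which did not pass. Without Vehicle 3 it was 0.20 (limma adjusted p 0.97).

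The ubiquitin ligase genes were expressed alongside. Znrf3 was at 2.51, 2.84 and 2.71 in the AZD7507 tumours, against 2.88, 2.76 and 2.50 in the vehicle tumours. The difference was -0.031 (95% interval -0.37 to 0.31). Rnf43 was at 3.11, 2.89 and 3.46 in the AZD7507 tumours, against 3.48, 2.09 and 3.37 in the vehicle tumours. Vehicle 2 was the lowest by 0.80 log2 units, and the difference of Rnf43 was 0.17 with it and -0.27 without it, a turn of direction in a value that did not pass either way.

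Secreted antagonists were uneven among the vehicle tumours. Dkk3, a Dickkopf relative whose action on LRP receptors is less clear than that of Dkk1, was the most abundant, at 3.82, 3.58 and 4.03 in the AZD7507 tumours, against 3.58, 2.30 and 4.08 in the vehicle tumours. In 5 libraries it lay between 3.58 and 4.08, and Vehicle 2 lay below them. The difference of 0.49 (SE 0.41, 95% interval -0.47 to 1.46, limma adjusted p 0.81) came to -0.016 without Vehicle 2 and 0.87 without Vehicle 3. Sfrp1, a Frizzled-like decoy that binds Wnt proteins, was at 2.92, 2.85 and 2.56 in the AZD7507 tumours, against 1.85, 3.04 and 2.79 in the vehicle tumours. Vehicle 1 was the lowest for Sfrp1, and the difference was 0.21.

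Sfrp2 was at 2.37, 2.47 and 2.19 in the AZD7507 tumours, against 2.09, 3.63 and 2.08 in the vehicle tumours. Vehicle 2 was the only library outside a narrow band, and the difference was -0.26 with it and 0.25 without it. Wif1 (chromosome 10, 121033960 to 121100650, plus strand), which binds Wnt proteins directly, was at -2.38, -2.91 and -2.36 in the AZD7507 tumours, against -3.20, 0.54 and -1.66 in the vehicle tumours. It was under 1 RPKM in 5 libraries and above it in Vehicle 2. The difference of -1.11 (SE 0.86, 95% interval -3.13 to 0.92, limma adjusted p 0.79) was the largest negative one of the 40 genes, and it was -0.12 without Vehicle 2 and -1.99 without Vehicle 1.

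Sfrp4 was at 1.48, 0.93 and 2.17 in the AZD7507 tumours, against 0.24, 2.55 and 0.10 in the vehicle tumours. As with Lgr5, Vehicle 2 was the highest and the other vehicle tumours the lowest. The difference was 0.57 with all libraries and 1.36 without Vehicle 2 (limma adjusted p 0.20), but 0.24 without AZD7507 3, 0.20 without Vehicle 1 and 0.13 without Vehicle 3. Dkk2 and Frzb, at mean levels of -0.36 and -0.48, differed by 0.43 and 0.18. Notum, an enzyme that removes the lipid from Wnt proteins, was at -0.93, -0.40 and -0.96 in the AZD7507 tumours, against -1.02, -0.18 and -0.18 in the vehicle tumours. The groups overlapped and the difference was -0.31 (95% interval -1.08 to 0.47).

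**Figure D4:**
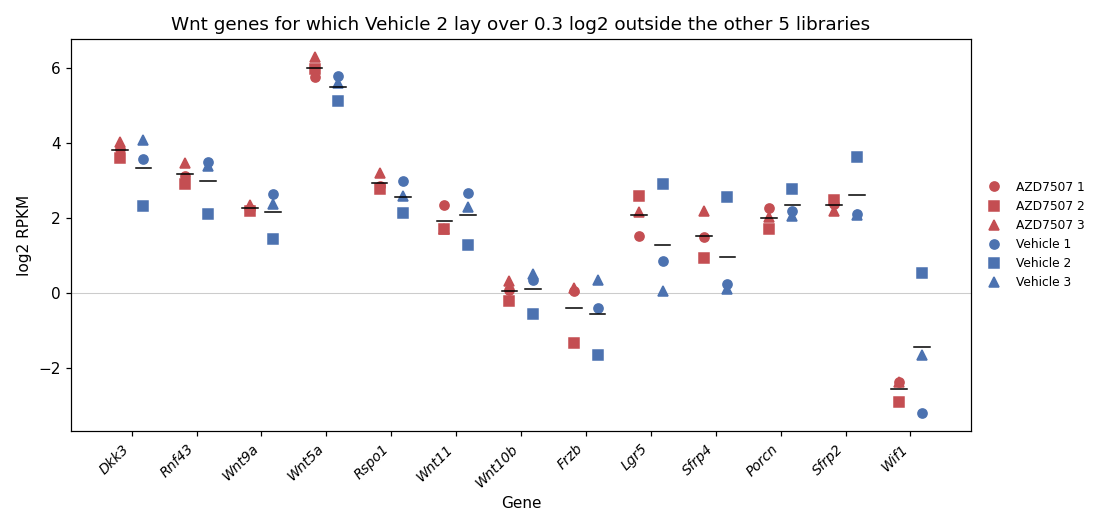
Log2 RPKM of the 13 Wnt pathway genes for which Vehicle 2 lay more than 0.3 log2 units outside the range of the other 5 libraries, with AZD7507 tumours in red on the left of each gene, vehicle tumours in blue on the right, and short lines at group means. Vehicle 2 (blue squares) is lowest for 8 genes from Dkk3 to Frzb and highest for Lgr5, Sfrp4, Porcn, Sfrp2 and Wif1.

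Vehicle 2 was thus the library that set several of these group means. It was the highest or lowest of the 6 for 26 of the 40 genes (65%), against 48.7% of all genes. For Wif1 it lay 2.20 log2 units above the highest of the others, and for Dkk3 1.27 below the lowest. AZD7507 2, the other acinar-rich library, lay next to Vehicle 2 at the same end for some of the 13 genes plotted above. They were the lowest pair for Rnf43 (AZD7507 2 at 2.89), Wnt9a (2.19), Wnt10b (-0.22) and Frzb (-1.32). They were the highest pair for Lgr5 (2.59) and Sfrp2 (2.47). For Dkk3, Wnt5a, Rspo1, Wnt11, Sfrp4, Porcn and Wif1 they were no such pair, and AZD7507 2 was the lowest for Porcn. The cause was not tested. The range among AZD7507 tumours exceeded 1 log2 unit for 6 of the 40 genes (15%, against 9.97% of all genes), and the range among vehicle tumours did so for 14 (35%, against 14.1%).

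Marker genes of other cell types also moved in Vehicle 2. The summed RPKM of 6 of 7 osteoclast markers was 17.6 to 22.2 in the AZD7507 tumours, against 18.8, 202 and 21.3 in Vehicle 1, Vehicle 2 and Vehicle 3. On the log2 scale the osteoclast protease genes Ctsk and Mmp9 were at 6.45 and 5.94 in Vehicle 2. Of the same list, Acp5, Atp6v0d2 and Dcstamp were also highest there, but Calcr, at -1.62, lay between the other libraries. The sum of 10 of 10 macrophage markers was also highest in Vehicle 2, at 672 RPKM, against 416 and 445 RPKM in Vehicle 1 and Vehicle 3. The sum of 8 of 10 epithelial markers was lowest in Vehicle 2, at 191 RPKM against 247 to 345 RPKM in the other libraries. Of that list, Krt8 and Cldn3 were lowest in Vehicle 1, and Pax8 was highest in Vehicle 2. The sum of 7 of 7 endothelial markers was also lowest there, at 37.9 RPKM against 49.5 to 56.7 RPKM in the other libraries. Cldn5, Emcn, Tie1 and Pecam1 of that list were each highest in Vehicle 2. The sum of 7 of 8 mesothelial markers was 726 to 1041 RPKM in the AZD7507 tumours. It was 836, 542 and 811 RPKM in the vehicle tumours in the same order, so Vehicle 2 was the lowest. Among these markers, Gpm6a was lowest in Vehicle 3, Msln was lowest in AZD7507 2, and Upk1b was highest in Vehicle 2. For 10 of 10 fibroblast markers the sum was 623 to 723 RPKM in the AZD7507 tumours, against 581, 864 and 673 RPKM in the vehicle tumours. The fibroblast markers Col1a2, Dcn, Lum, Fap and Thy1 were not highest in Vehicle 2, while Col1a1, Col3a1, Pdgfra, Pdgfrb and Postn were. For 5 of 8 osteoblast and cartilage markers the sum was 23.8 to 30.3 RPKM in the AZD7507 tumours, against 19.3, 36.2 and 20.1 RPKM in the vehicle tumours. Sox9 of that list was lowest in Vehicle 2. Of the defining markers, Ocstamp, Calb2, Cldn4, Cldn7, Acan, Bglap and Ibsp were not analysed here. The part of these cells, and of the acinar transcripts, in the values of Vehicle 2 was not tested.

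Axin1 and Axin2 encode the scaffold of the beta-catenin destruction complex, and Axin2 is itself switched on by the pathway. Axin1 was at 3.39, 3.45 and 3.52 in the AZD7507 tumours, against 3.33, 3.54 and 3.36 in the vehicle tumours. Its difference was 0.045 (95% interval -0.20 to 0.29). Axin2 (chromosome 11, 108920349 to 108950783, plus strand) was at 3.47, 3.29 and 3.34 in the AZD7507 tumours, against 3.67, 3.17 and 3.36 in the vehicle tumours. The AZD7507 tumours lay inside the vehicle range, and the difference was -0.035 (SE 0.15, 95% interval -0.38 to 0.31, limma adjusted p 0.97). Lef1, a nuclear partner of beta-catenin, was low at -2.64, -1.64 and -2.23 in the AZD7507 tumours, against -2.59, -2.11 and -2.33 in the vehicle tumours. Its difference was 0.17 with an interval of -0.74 to 1.09, so a change of a doubling could not be set aside.

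The sequences before the transcription starts are shown for 3 genes: Axin2, the feedback gene, Fzd7, an abundant receptor, and Wif1, the gene with the widest vehicle range. They are the 250 bases before the RefSeq start in GRCm38.p6, all on the plus strand, at chr11:108920099-108920348 for Axin2, chr1:59481897-59482146 for Fzd7 and chr10:121033754-121034003 for Wif1. Capitals mark matches to the TCF and LEF core, searched as CTTTG followed by A or T at each of the next 2 positions, on both strands and with overlaps allowed.
Axin2: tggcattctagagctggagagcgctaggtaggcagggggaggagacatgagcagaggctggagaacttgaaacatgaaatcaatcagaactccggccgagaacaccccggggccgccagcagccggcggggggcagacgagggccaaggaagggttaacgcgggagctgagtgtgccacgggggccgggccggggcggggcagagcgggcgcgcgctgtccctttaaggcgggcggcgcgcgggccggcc
Fzd7: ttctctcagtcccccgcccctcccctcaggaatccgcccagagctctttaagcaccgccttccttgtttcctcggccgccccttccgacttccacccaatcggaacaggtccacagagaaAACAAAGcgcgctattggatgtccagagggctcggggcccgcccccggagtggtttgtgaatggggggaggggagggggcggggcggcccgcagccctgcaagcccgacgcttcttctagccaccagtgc
Wif1: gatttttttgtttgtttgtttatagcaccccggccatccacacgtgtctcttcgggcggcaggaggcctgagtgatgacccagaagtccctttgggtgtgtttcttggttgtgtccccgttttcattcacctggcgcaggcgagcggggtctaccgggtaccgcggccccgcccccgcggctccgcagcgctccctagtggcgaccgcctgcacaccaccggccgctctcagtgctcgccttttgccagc
Fzd7 held 1 match, read as AACAAAG on the plus strand, and the windows of Axin2 and Wif1 held none. The windows of Fzd1, Fzd4 and Fzd5, the other Frizzled genes with a window, also held none. RefSeq windows were found for 22 of the 40 genes, 29 windows in all, and 4 of them (13.8%) held a match, against 14.8% of all 32851 windows. The others were in Lef1, Wnt11 and Wnt5b. A match describes the letters only.

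The rest of the pathway was described from further gene lists. Of 29 intracellular components 0 passed in either direction, with a median difference of 0.0097 (-0.012 to 0.027 on leaving out 1 library), and at an unadjusted p under 0.05 there were 0 higher and 2 lower (6.9%, near the 5.49% of all genes). Those were Dvl1, a scaffold that links Frizzled to the destruction complex, and Tle3, a co-repressor of TCF factors. Dvl1 was at 3.55 ± 0.056 with AZD7507 and 3.89 ± 0.16 with vehicle, a difference of -0.33 (limma adjusted p 0.44), and Tle3 differed by -0.27 (limma adjusted p 0.53). The third by unadjusted p was Bcl9, a beta-catenin co-activator, at 0.21. Ctnnb1, which encodes beta-catenin itself, was at 6.50 ± 0.048 with AZD7507 and 6.48 ± 0.10 with vehicle. Among the TCF family, Tcf7l2 was the most abundant at 3.66 ± 0.23 with AZD7507 and 3.55 ± 0.30 with vehicle, well above Lef1 on the same per-length scale.

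Reported target genes of beta-catenin gave 19 measured members of 25, of which Axin2, Lef1, Lgr5, Znrf3, Rnf43 and Notum are described above. Of these 19, 0 passed in either direction, while with array weights, an alternative fit, 1 passed upward (against 14 of all 16344 genes). In the main fit 12 differences were positive, and the median was 0.13, against 0.025 over all genes. At an unadjusted p under 0.05 there were 2 higher (10.5%, against 3.31% of all genes) and 0 lower (against 5.49%). The AZD7507 tumours lay above all vehicle tumours for 3 of the 19 (15.8%, against 7.34% of all genes). Ccn4, a matricellular protein gene first found as induced by Wnt1, was at 4.58, 4.51 and 4.59 in the AZD7507 tumours, against 4.07, 4.02 and 4.02 in the vehicle tumours. Its groups did not overlap and each was tight, and the difference was 0.52 (SE 0.092, 95% interval 0.30 to 0.73, limma adjusted p 0.094). On leaving out 1 library it ran from 0.51 to 0.54, with limma adjusted p between 0.14 and 0.42. Sox9, a transcription factor gene, was at 3.28, 3.34 and 3.43 in the AZD7507 tumours, against 3.02, 2.90 and 3.20 in the vehicle tumours. Its groups did not overlap, with a difference of 0.31 (limma adjusted p 0.50), and Myc was next at 0.43 (limma adjusted p 0.58), or 0.21 without Vehicle 1. The negative regulators Nkd1 and Nkd2, the target Sp5 and the cyclin gene Ccnd1 differed by 0.041, -0.036, 0.13 and -0.08, and each of these changed sign on leaving out 1 library.

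**Figure D5:**
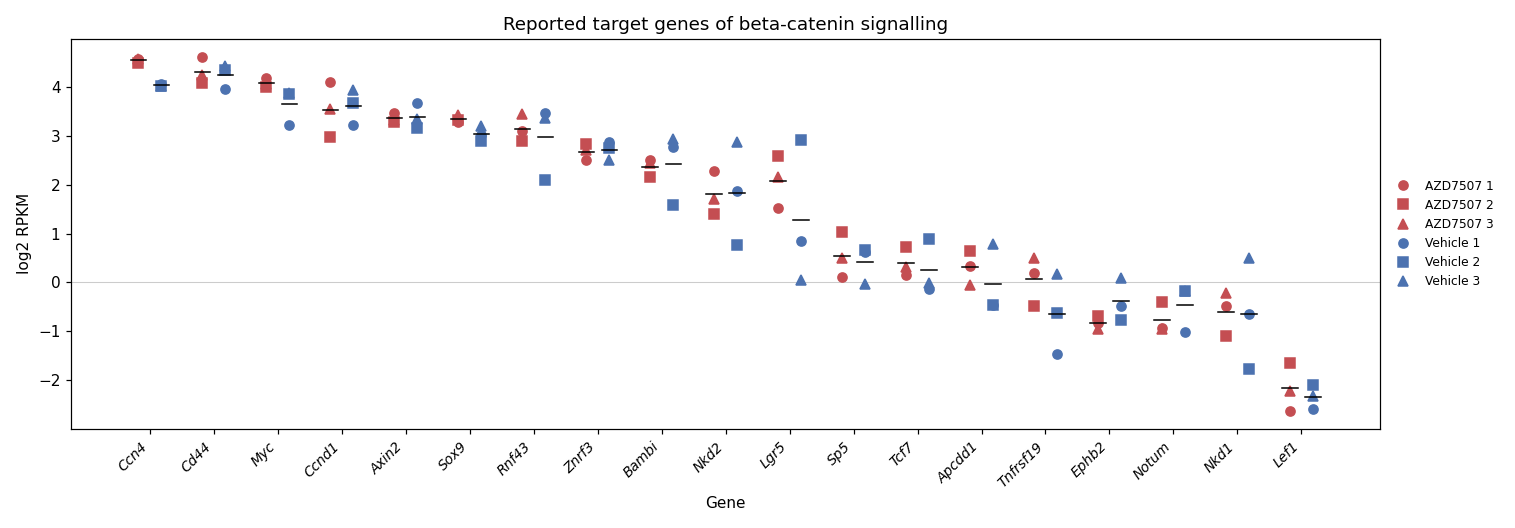
Log2 RPKM of the 19 measured target genes, ordered by mean level, with AZD7507 tumours in red on the left of each gene, vehicle tumours in blue on the right, and short lines at group means. Ccn4, Myc and Sox9 show AZD7507 tumours above all vehicle tumours, while Axin2, Znrf3, Rnf43 and most others overlap.

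Other receptors and modulators, 17 measured of 21, held 0 genes that passed and 0 at an unadjusted p under 0.05, with a median difference of 0.043. That median ran from -0.19 to 0.19 on leaving out 1 library, and was 0.16 without Vehicle 2. The 3 with the smallest unadjusted p were Gpc6, a cell surface heparan sulphate proteoglycan gene, at -0.41, Ryk, an atypical Wnt receptor gene, at 0.21, and Kremen1, a Dickkopf receptor gene, at -0.44 (-0.17 without Vehicle 2). Ror1, a receptor for Wnt5a, was at 2.61 ± 0.44 with AZD7507 and 2.57 ± 0.30 with vehicle, and Ror2 was at -1.61 ± 0.47 with AZD7507 and -1.41 ± 0.28 with vehicle. Planar cell polarity genes, 12 measured of 14, held 0 that passed, with 1 higher (against 3.31% of all genes) and 0 lower at an unadjusted p under 0.05. Their median of 0.10 was -0.02 without Vehicle 2. That gene was Vangl1, a membrane protein of the polarity complex, at 0.40 (limma adjusted p 0.53), followed by Vangl2 at 0.39 and Celsr1 at 0.26, the last at -0.018 without Vehicle 2.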

How the data were processed

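Total RNA of 6 tumours was depleted of ribosomal RNA and sequenced, per the labels' protocols. The authors deposited 1 table of log2 RPKM values, normalized with cqn according to the table's name, a method that corrects for gene length and GC content. The submitters' processing notes name BWA 0.7.15-r1140, HTSeq and the builds mm10 and GRCm38. Annotation release, strand setting and any filter on low genes are not given in the sources used here. Library medians were 2.32 and upper quartiles 3.52 throughout, so a shift of all RNA together would not show.

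Groups follow the treatment label, and replicate numbers follow record order. Symbols matched 16306 of 16344 identifiers. Members and gene lists were chosen with earlier results of these data known. The log2 values were fitted as deposited with limma 3.58.1 in R 4.3.3 (trended and robust prior, adjusted p threshold 0.05), and the fit was tested on simulated data. Differences are AZD7507 minus vehicle, and SDs have n = 3. Values in every library are given for Axin2, Lef1, Lgr5, Znrf3, Rnf43 and Notum, for the 3 most abundant genes of each role and for the 5 smallest unadjusted p in each direction. Of each pathway list any gene called in the main fit and the 3 smallest unadjusted p are named. The target gene called only with array weights is not named. The library values of Sfrp4, and further list genes, were picked once their values were known. The alternatives were a constant prior, leaving out genes with a mean under 0, log2(RPKM + 1) and log2(RPKM + 0.1), quantile normalization, median centring, array weights, omission of each library, and omission of both acinar-rich libraries.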

Additional observations from a re-analysis of the deposited data

How the results depend on the processing

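None of the 40 Wnt pathway genes was called under any of the 14 alternatives, higher or lower. Limma's lowest adjusted p among the 40 ran from 0.099 (Sfrp4, without both acinar-rich libraries, difference 1.66) to 0.99. Of the 19 reported target genes, array weights called 1 higher and 0 lower, and no other alternative called any. Over the whole table, where 3 genes were higher and 55 lower, a constant variance prior gave 1 higher, array weights gave 14 higher and 143 lower, and omitting both acinar-rich libraries gave 1 higher and 13 lower. Leaving out any 1 library gave 0 higher and 0 to 14 lower genes, the 14 without AZD7507 1. The constant prior, the minimum mean of 0 (31 of the 40 genes left), both pseudocounts, quantile normalization and median centring turned no difference round. A constant prior and a minimum mean cannot change a difference. The libraries already shared their median and upper quartile, so median centring, and quantile normalization at middle and higher levels, could change little. At the low end, quantile normalization moved the difference of Wnt7b from 0.28 to 0.44. Array weights turned 9, with differences of Rnf43 -0.091, Wnt6 -0.02, Wnt9a -0.11, Fzd4 -0.031, Fzd2 -0.023, Lgr6 0.042, Sfrp2 0.10, Frzb -0.061 and Wls 0.11. Omitting both acinar-rich libraries turned 10, with Rnf43 -0.14, Wnt6 -0.16, Wnt9a -0.21, Fzd2 -0.12, Lgr6 0.23, Rspo3 -0.013, Sfrp2 0.19, Wif1 0.061, Wls 0.16 and Porcn 0.011. None of these passed, and the cause was not tested.

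Leaving out 1 library turned the sign of many differences, among them that of Dkk3 (0.49 with all libraries), and none of these passed. Their lowest and highest values over the 6 omissions were Znrf3 -0.14 to 0.058, Lgr4 -0.32 to 0.024, Rspo3 -0.16 to 0.39, Frzb -0.36 to 0.65, Axin2 -0.15 to 0.10, Lef1 -0.089 to 0.41, Wnt10b -0.37 to 0.17, Wnt2b -0.97 to 0.40, Fzd2 -0.0026 to 0.21, Fzd8 -0.43 to 0.14, Lgr6 -0.26 to 0.23, Wls -0.091 to 0.081, Fzd1 -0.27 to 0.11, Wnt11 -0.55 to 0.14, Fzd7 -0.22 to 0.025, Sfrp1 -0.14 to 0.45, Rnf43 -0.27 to 0.42, Wnt6 -0.13 to 0.31, Wnt9a -0.25 to 0.35, Dkk3 -0.016 to 0.87 and Sfrp2 -0.52 to 0.25. No paired analysis was possible because the labels and columns carry no replicate numbers shared between the groups. The acinar-poor libraries, 2 of each treatment, gave the values above for omission of both acinar-rich libraries, and the acinar-rich class, with 1 of each treatment, is too small for a test. The depth is unknown, so it cannot be said which low values, such as those of Wnt7b, Rspo3, Lef1 and Wif1, rest on few reads.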
